A study of Mus musculus with 6 samples.

Results

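The myosin II genes described here are the 10 rows of the deposited table whose gene symbol is Myh9, Myh10, Myh11, Myh14, Myl6, Myl9, Myl12a, Myl12b, Mylk or Cald1, out of 27179 genes in all. They were listed by name and function, with earlier results of these data known, and each had exactly 1 row. Values per library are given in the order FCRE3, FCRE4, FCRE5 and FF1, FF2, FF4 throughout. RNA was measured by poly(A) sequencing of cerebral cortex from C57BL/6N mouse embryos at E18.5. The CAP1-KO group (libraries FCRE3, FCRE4 and FCRE5) had the genotype Cap1flx/flx,Nestin-CRE, in which both Cap1 alleles carry recombination sites and Cre is driven by the Nestin promoter, active mainly in neural progenitors and their progeny. The Control group (libraries FF1, FF2 and FF4) had the genotype Cap1 flx/flx, the same alleles without Cre. No group carried Cre alone, so an effect of the transgene cannot be told apart from loss of CAP1, a protein that helps to recycle actin monomers. Levels are CPM (reads scaled to the size of their library) recovered from the deposited log2 values, and a gene is called where limma on log2(CPM + 1) gave a Benjamini-Hochberg adjusted p under 0.05 over the 13885 genes averaging 1 CPM or more.

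Myosin II is the motor that pulls actin filaments past each other. Each molecule has a pair of heavy chains, which hold the motor domain and form the filament, a pair of essential light chains that stiffen the lever arm, and a pair of regulatory light chains whose phosphorylation switches the motor on. Myh9, Myh10 and Myh14 encode the non-muscle heavy chains IIA, IIB and IIC, and Myh11 the smooth muscle heavy chain. Developing neurons and their progenitors use mainly the IIB form, in neuron migration, growth cone traction and the shape of the ventricular surface. Many smooth muscle contractile genes are known targets of the transcription factor SRF, which binds a short DNA element called the CArG box and whose MRTF cofactors are held inactive by unpolymerised actin.

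Cap1 itself measured 86.6, 85.9 and 82.9 CPM in CAP1-KO, against 194, 193 and 166 CPM in the Control libraries, so 46.2% of the Control mean remained (log2 fold change -1.10, SE 0.07, limma adjusted p = 0.000283). The labels do not name the deleted exons or the cells left out of recombination. Between 32443864 and 36302598 reads were recovered per library, and 1 CPM stood for 31.2 to 37.3 reads. Xist, which coats the silenced X chromosome, was at 2398 to 2653 CPM in the CAP1-KO libraries and at 2296 CPM in FF2, but at 0.577 CPM in FF1 and 2.05 CPM in FF4, so Xist was high in every CAP1-KO library and in 1 of 3 Control libraries. The cortical neuron markers fixed for this work (10 genes) were all present and summed to 5751 to 6128 CPM in CAP1-KO, against 7371 in FF1, 7560 in FF2 and 5879 in FF4; FF4 lay inside the CAP1-KO range. The labels call the libraries biological replicates, and nothing says which shared a litter.

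Of the 10 myosin II genes, 4 rose in the CAP1-KO cortex and 0 fell. The 4 were Myl9, a regulatory light chain, Myh11, the smooth muscle heavy chain, Cald1, which encodes caldesmon, and Myl6, the essential light chain of smooth and non-muscle myosin. All 10 passed the filter on low values. Among all tested genes 0.965% were called, 0.562% higher and 0.403% lower. At an unadjusted p under 0.05, 5 members were higher and 0 lower, beside 23% of all tested genes (3194), 7.74% higher and 15.3% lower. Limma-voom on the recovered reads also gave 4 higher and 0 lower. In 5 members, the 4 called and Myl12a, every CAP1-KO library lay above every Control library, which was so for 11.1% of all tested genes, while 14.6% lay entirely lower and 0 members did. The median log2 fold change of the members was 0.32, beside -0.01 over all tested genes. The members were chosen with earlier results of these data known, so the shares over all genes are given for scale only. Whether the list as a whole differs from other genes was not tested. A change in the number of cells of a type and a change in RNA per cell cannot be told apart in these bulk samples.

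**Figure D1:**
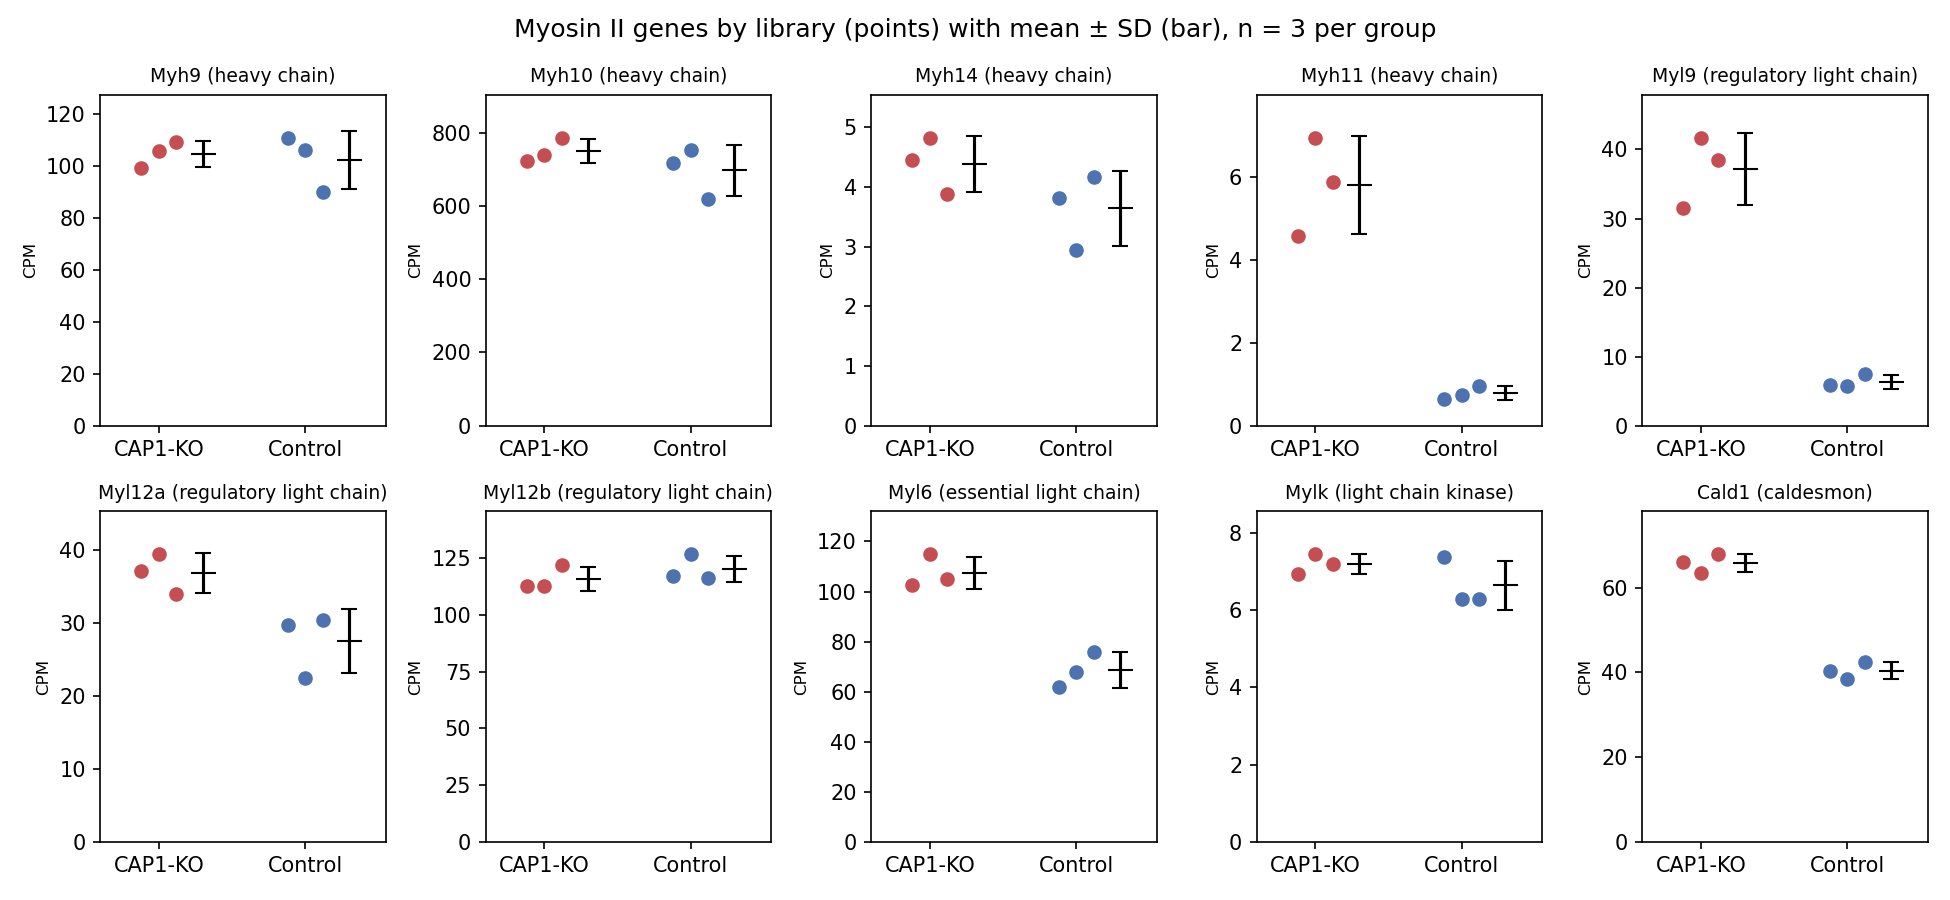
Level in CPM (vertical axes, linear from 0) of each myosin II gene in the 3 CAP1-KO libraries (left, red) and the 3 Control libraries (right, blue), with mean ± SD as a bar beside the points. Myl9, Myh11, Cald1, Myl6 and Myl12a show no overlap between the groups; the other 5 genes overlap.

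The regulatory light chain genes carry the phosphorylated site, and their coding sequences show how closely the 3 genes are related. The stretches below run from codon 11 to codon 28 (the start codon is codon 1), from the GENCODE vM21 transcripts, and the capitals mark the threonine and serine codons, 19 and 20, that myosin light chain kinase phosphorylates. Each lies in a single coding exon on GRCm38: Myl9 at chr2:156778575-156778628 on the plus strand, Myl12a at chr17:70996797-70996850 and Myl12b at chr17:70977148-70977201 on the minus strand.
Myl9: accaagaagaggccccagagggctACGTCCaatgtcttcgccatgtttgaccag
Myl12a: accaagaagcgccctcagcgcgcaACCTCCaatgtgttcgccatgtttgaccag
Myl12b: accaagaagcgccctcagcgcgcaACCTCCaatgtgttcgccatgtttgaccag
The Myl12a and Myl12b stretches are identical, and over the whole coding sequence of 519 bases these neighbouring genes share 96.5% of bases, with an exact shared run of up to 120 bases in their transcripts. Myl9 shares 85.5% with Myl12a and 86.3% with Myl12b, with no exact run over 35 bases. How the authors' counting divided reads between Myl12a and Myl12b is not given in the sources used here, so the split between those 2 genes is uncertain, while Myl9 is further from both. Another annotated gene that also bears the name Myl12b covers 13.8% of the exonic bases of Myl12a and 26.7% of those of Myl12b.

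Myl9 and Myh11 had the highest fold changes among the members, and which of them led depended on the scale: Myl9 on log2(CPM + 1), Myh11 in the ratio of means, with limma-voom and in the authors' deposited table. Myl9 (gene number 98932, GRCm38 chromosome 2, 156775420 to 156781658) encodes the regulatory light chain that is abundant in smooth muscle. It measured 31.5, 41.6 and 38.4 CPM in FCRE3, FCRE4 and FCRE5, against 5.84, 5.75 and 7.46 CPM in FF1, FF2 and FF4. The lowest CAP1-KO library was far above the highest Control library, FF4. The mean was 37.2 ± 5.20 CPM in CAP1-KO and 6.35 ± 0.97 CPM in Control (SD, n = 3 each), a ratio of 5.86, and the log2 fold change was 2.38 (SE 0.13, limma adjusted p = 0.000148). These levels rest on 3996 reads over the CAP1-KO libraries and 622 over the Control libraries. The call was kept in all 17 alternative settings, with a log2 fold change of 2.16 to 2.55.

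Myl12a (gene number 67268, chromosome 17, 70993656 to 71002878) and Myl12b (67938, chromosome 17, 70973133 to 70990890), the non-muscle regulatory light chains, did not pass. Myl12a measured 37.0, 39.4 and 33.9 CPM in CAP1-KO, against 29.7, 22.4 and 30.5 CPM in FF1, FF2 and FF4. The groups did not overlap, but the gap from FCRE5 to FF4 was small and FF2 lay well below the other two Control libraries (log2 fold change 0.42, SE 0.12, limma adjusted p = 0.112). Without FF4 the gene passed (log2 fold change 0.49, limma adjusted p = 0.011), but there 3914 of 13875 tested genes were called, beside 134 in the main fit. It also passed against FF2 alone, its lowest Control library (0.69), a setting that likewise called more genes than the main fit. It did not pass in the other 15 alternatives, which included its lowest and highest estimates. These were 0.26 against FF4 alone and 0.691 with the Xist level as a covariate (limma adjusted p = 0.094). Without FF2 the estimate was 0.28 (limma adjusted p = 0.302). Myl12b measured 113, 112 and 122 CPM in CAP1-KO, against 117, 127 and 116 CPM in FF1, FF2 and FF4, with the groups interleaved. Its log2 fold change was -0.05, with a 95% interval of -0.18 to 0.08 (limma adjusted p = 0.610). Of the exonic bases of Myl12a, 6.16% lie opposite exons of Myom1, a sarcomere protein gene. Myom1 rose to 3.66 ± 0.45 CPM in CAP1-KO, against 1.26 ± 0.09 CPM in Control (SD, n = 3 each, limma adjusted p = 0.00689). Whether the counting used strand is not given in the sources used here, and the part of shared reads in either gene was not tested.

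Divided by transcript length, Myl9 took a larger share of the regulatory light chain RNA in the CAP1-KO cortex. Levels of different genes were compared as CPM per kilobase of the longest coding transcript, which is 1128 bases for Myl9, 1937 for Myl12a and 2143 for Myl12b. Myl9 made up 28.0%, 33.6% and 31.4% of the 3 genes' sum in FCRE3, FCRE4 and FCRE5, against 6.88%, 6.73% and 8.64% in FF1, FF2 and FF4. Myl12b made up 51.0 ± 2.78% of the sum in CAP1-KO and 73.9 ± 3.70% in Control, and Myl12a 18.0 ± 1.61% in CAP1-KO and 18.7 ± 2.98% in Control (SD, n = 3 each). The sum itself was 99.6, 109.7 and 108 CPM per kilobase in CAP1-KO, against 75.1, 75.7 and 76.6 in the Control libraries, a ratio of means of 1.40. The Myl9 share, the Myl12b share and the sum each separated the groups fully, which gives an exact two-sided permutation p of 0.1, the smallest that 3 against 3 libraries allow. These results are not independent, since the shares are parts of the same sum and a larger Myl9 share leaves less for the others. The level of Myl12b itself was not called (log2 fold change -0.05). For the Myl12a share the exact permutation p was 0.6. With the median transcript length in place of the longest, the difference in Myl9 share was 17.3 percentage points, in place of 23.6. The sum was computed with the longest transcripts only, where Myl9, the shortest, weighs most per read.

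**Figure D2:**
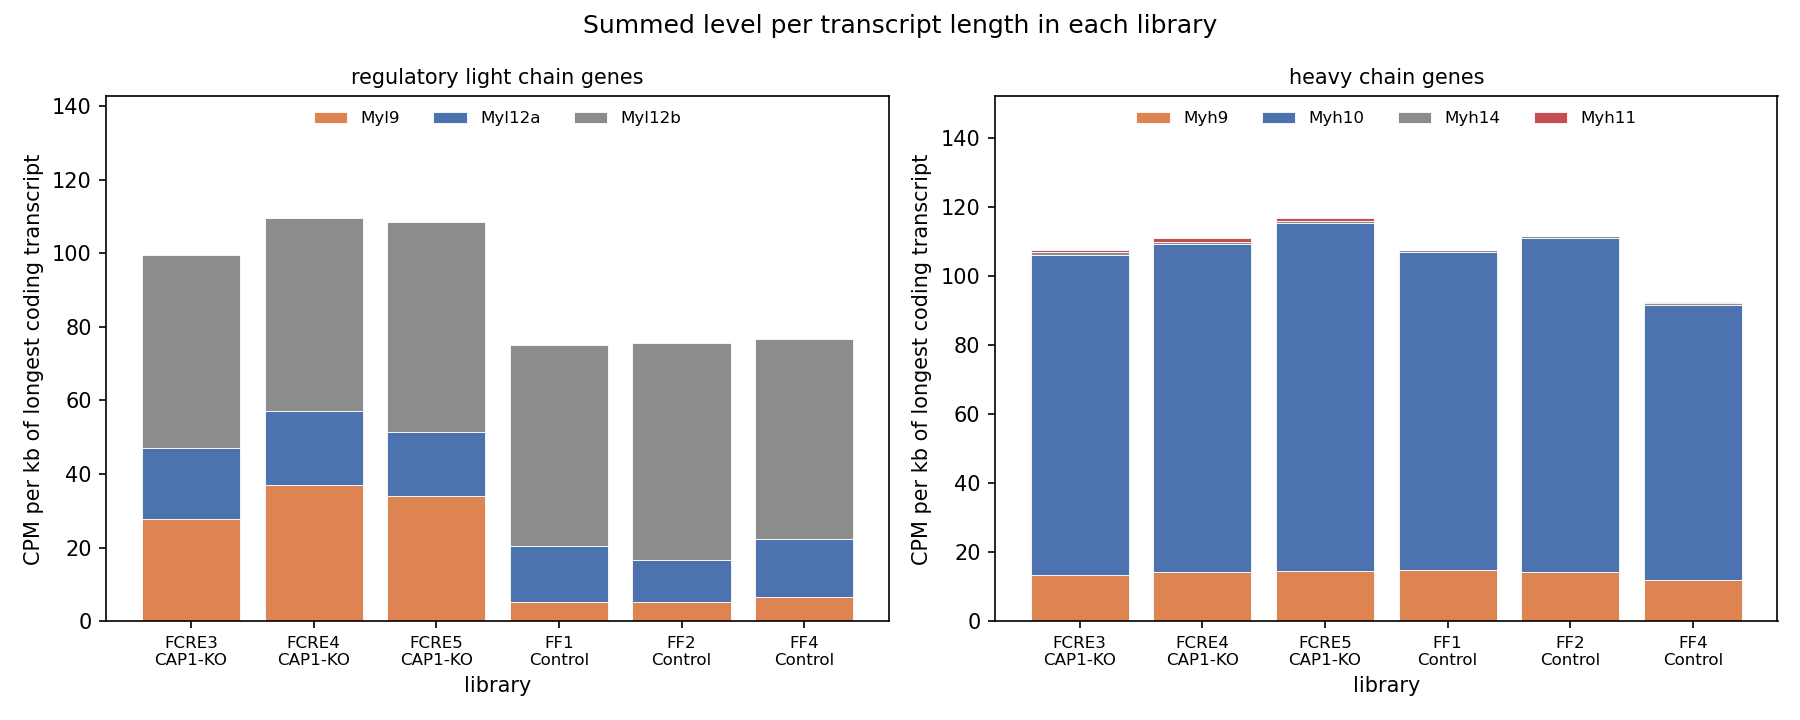
Summed CPM per kilobase of the longest coding transcript (vertical axis, linear from 0) for the regulatory light chain genes (left panel) and the heavy chain genes (right panel), 1 bar per library, CAP1-KO libraries first. Myl9 (orange, left) widens to 28.0% or more of the bar in each CAP1-KO library, while Myh10 (blue, right) fills most of every heavy chain bar.

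Among the heavy chains, Myh11, very low in Control, rose and the non-muscle genes did not pass. Myh11 (gene number 17880, chromosome 16, 14194535 to 14291372) measured 4.58, 6.95 and 5.89 CPM in FCRE3, FCRE4 and FCRE5, against 0.641, 0.744 and 0.967 CPM in FF1, FF2 and FF4. Every CAP1-KO library was well above every Control library. The mean was 5.81 ± 1.18 CPM in CAP1-KO and 0.784 ± 0.166 CPM in Control (SD, n = 3 each), a ratio of 7.41 that rests on 624 and 77 reads over the groups. The log2 fold change was 1.92 (SE 0.15, limma adjusted p = 0.00127) on the log2(CPM + 1) scale, which understates a change at this level, and 2.86 with limma-voom. Myh11 kept its call in all 16 alternatives that could test it.

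Myh10 (gene number 77579, chromosome 11, 68691559 to 68816632), the non-muscle heavy chain IIB, was the most abundant member per kilobase of the longest coding transcript in both groups. Ranks with median lengths were not computed and could differ. The median is 7713 bases for Myh10 (longest 7791) but 678 for Myl6 (longest 1668) and 633 for Myh9 (longest 7433). Myh10 measured 724, 740.1 and 785 CPM in CAP1-KO, against 718, 754 and 620.0 CPM in FF1, FF2 and FF4. The groups overlapped (log2 fold change 0.11, 95% interval -0.08 to 0.30, limma adjusted p = 0.465). Myh9 (17886, chromosome 15, 77760587 to 77842175), heavy chain IIA, measured 99.0, 106 and 109 CPM in CAP1-KO, against 111, 106 and 89.8 CPM in FF1, FF2 and FF4. FF4 was the lowest library for both of these genes. The log2 fold change of Myh9 was 0.04, with a 95% interval of -0.15 to 0.23 (limma adjusted p = 0.820). Myh14 (71960, chromosome 7, 44605803 to 44670843), heavy chain IIC, measured 4.45, 4.82 and 3.88 CPM in CAP1-KO, against 3.82, 2.95 and 4.17 CPM in the Control libraries (log2 fold change 0.22, 95% interval -0.08 to 0.52, limma adjusted p = 0.351). The intervals of Myh9 and Myh10 leave out changes of the size seen for Myl6 or Cald1.

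Myh10 made up 86.3%, 85.6% and 86.2% of the summed heavy chain level per kilobase in FCRE3, FCRE4 and FCRE5, against 85.5%, 86.7% and 86.1% in FF1, FF2 and FF4 (exact permutation p = 1). The Myh9 share was 12.6 ± 0.21% in CAP1-KO and 13.2 ± 0.53% in Control (exact permutation p = 0.2), and the Myh14 share was 0.605 ± 0.084% in CAP1-KO and 0.548 ± 0.144% in Control (exact permutation p = 0.7; SD, n = 3 each). Despite its rise, Myh11 reached 0.792 ± 0.154% of the sum in CAP1-KO, against 0.117 ± 0.037% in Control, with no overlap (exact permutation p = 0.1, the smallest possible). All these heavy chain shares rest on the longest coding transcripts. With median lengths only their group differences were computed, and the Myh9 median is 633 bases (longest 7433), so the order of the shares could differ. Summed heavy chains came to 112 ± 4.73 CPM per kilobase in CAP1-KO and 104 ± 10.1 in Control (exact permutation p = 0.5). The ratio of summed regulatory light chains to summed heavy chains was 0.926, 0.988 and 0.927 in CAP1-KO, against 0.698, 0.678 and 0.829 in FF1, FF2 and FF4, and the groups did not overlap (exact permutation p = 0.1). This ratio was computed with the longest transcripts only. In coding sequence, Myh11 shares 74.5% of bases with Myh9, 72.3% with Myh10 and 64.4% with Myh14, with no exact run over 65 bases. Myh9 and Myh10 share 73.7% of bases and an exact run of 122 bases.

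Myl6 rose by about the same factor as Cald1, while its neighbour and paralog Myl6b fell. Myl6 (gene number 17904, chromosome 10, 128490860 to 128494145) measured 103, 115 and 105 CPM in FCRE3, FCRE4 and FCRE5, against 61.8, 67.9 and 76.0 CPM in FF1, FF2 and FF4. The groups did not overlap, and FF4 was the highest Control library. The mean was 107 ± 6.48 CPM in CAP1-KO and 68.6 ± 7.13 CPM in Control (SD, n = 3 each), a ratio of 1.57 (log2 fold change 0.64, SE 0.08, limma adjusted p = 0.0142). This call was kept in 11 of 17 alternatives and was lost without FF1, FF2, FCRE3 or FCRE5, with the Xist level as a covariate (limma adjusted p = 0.198) and against FF4 alone, with log2 fold changes between 0.49 and 0.68 in those 6. Myl6b, an essential light chain of slow muscle and non-muscle cells, measured 17.5, 19.5 and 16.5 CPM in CAP1-KO, against 28.0, 27.5 and 24.7 CPM in the Control libraries (log2 fold change -0.56, SE 0.08, limma adjusted p = 0.0281). Its call was lost in 7 of 17 alternatives. The coding sequences of Myl6 and Myl6b share 57.5% of aligned bases and no exact run over 46 bases. Per kilobase of the longest coding transcript, the ratio of Myl6 to summed regulatory light chains was 0.608 ± 0.025 in CAP1-KO and 0.542 ± 0.051 in Control (SD, n = 3 each, exact permutation p = 0.2). The longest Myl6 transcript has 1668 bases and the median 678, and the ratio was not computed with median lengths.

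Cald1 (gene number 109624, chromosome 6, 34598500 to 34775473) encodes caldesmon, which binds actin and myosin and restrains the motor until it is phosphorylated or bound by calmodulin. It measured 66.1, 63.6 and 67.9 CPM in CAP1-KO, against 40.5, 38.3 and 42.4 CPM in the Control libraries, with little spread in either group. The mean was 65.8 ± 2.15 CPM in CAP1-KO and 40.4 ± 2.04 CPM in Control (SD, n = 3 each), a ratio of 1.63 (log2 fold change 0.69, SE 0.05, limma adjusted p = 0.0013), and the call was kept in all 17 alternatives. Smooth muscle and non-muscle cells make different caldesmon forms from this gene, and a level per gene does not separate them. Mylk (107589, chromosome 16, 34745210 to 35002420), the calmodulin-dependent kinase of the regulatory light chain, measured 6.94, 7.45 and 7.20 CPM in CAP1-KO, against 7.37, 6.28 and 6.28 CPM in the Control libraries. Those values overlapped, and the log2 fold change was 0.10, with a 95% interval of -0.10 to 0.31 (limma adjusted p = 0.523). The authors' deposited table makes the same split at an FDR under 0.05, with log2 fold changes of 2.55 for Myl9 (FDR 2.87e-05), 2.88 for Myh11 (FDR 9.95e-05), 0.70 for Cald1 (FDR 0.000213) and 0.65 for Myl6 (FDR 0.00361), and an FDR of 0.142 for Myl12a.

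**Figure D3:**
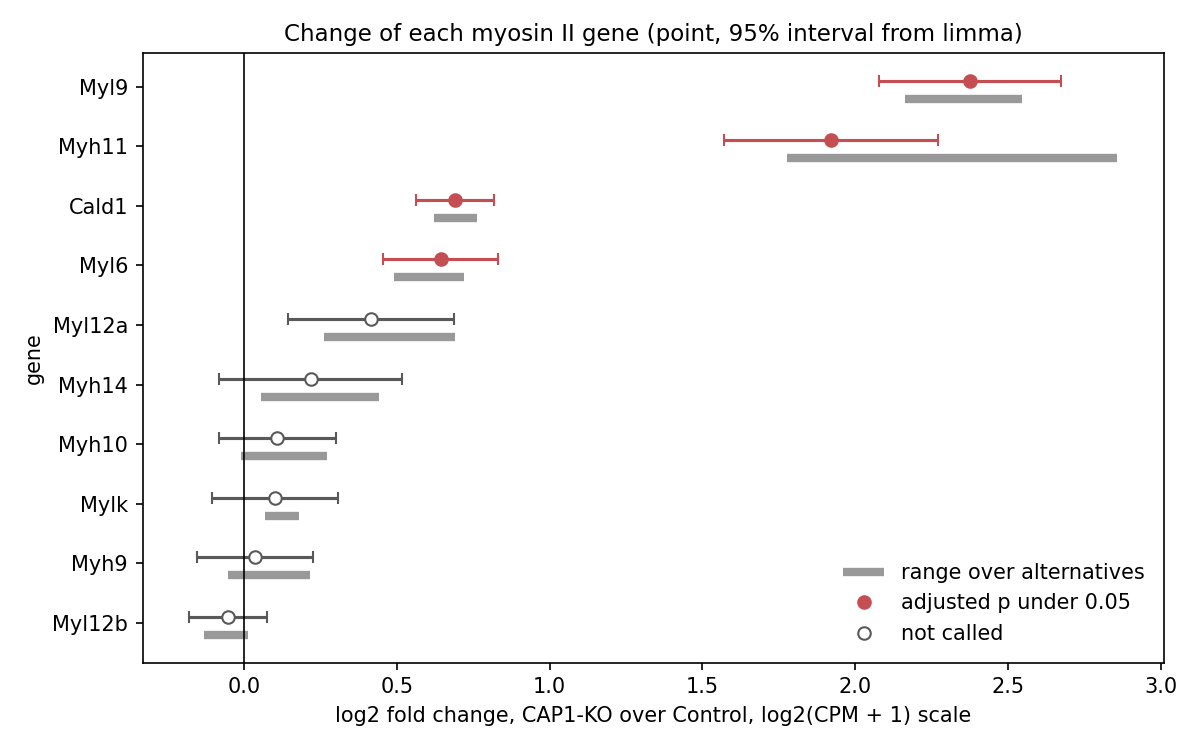
Log2 fold change of each myosin II gene, CAP1-KO over Control, on the log2(CPM + 1) scale (horizontal axis), as a point with its 95% interval from limma, filled where the adjusted p is under 0.05. The grey bar under each point spans the estimates from the alternative settings: those of Myl9, Myh11, Cald1 and Myl6 stay above 0, and those of Myh9, Myh10 and Myl12b cross it.

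Levels per kilobase put the members in a different order in the groups. In CAP1-KO the order was Myh10 (96.2 ± 4.09 CPM per kilobase), Myl6 (64.4 ± 3.89), Myl12b (54.0 ± 2.53), Myl9 (33.0 ± 4.61), Myl12a (19.0 ± 1.42), Myh9 (14.1 ± 0.68), Cald1 (13.8 ± 0.45), Mylk (0.920 ± 0.032), Myh11 (0.887 ± 0.181) and Myh14 (0.674 ± 0.073). The neighbours Myh9 and Cald1, Mylk and Myh11, and Myh11 and Myh14 overlapped between libraries there. In Control it was Myh10 (89.5 ± 8.90), Myl12b (56.0 ± 2.66), Myl6 (41.1 ± 4.27), Myl12a (14.2 ± 2.29), Myh9 (13.7 ± 1.48), Cald1 (8.46 ± 0.43), Myl9 (5.63 ± 0.86), Mylk (0.850 ± 0.080), Myh14 (0.561 ± 0.097) and Myh11 (0.120 ± 0.025), where among neighbours Myl12a and Myh9 alone overlapped. With the longest coding transcripts, Myl9 stood above Myl12a, Myh9 and Cald1 in CAP1-KO and below all 3 in Control. Myh11 stood above Myh14 in CAP1-KO and below it in Control. The order was not computed with median coding transcripts. Those are 1128 bases for Myl9, 894.5 for Myl12a, 1602.5 for Cald1 and 633 for Myh9, where the longest are 1128, 1937, 4777 and 7433. In CPM without division by length, Myl9 averaged 37.2 and Myl12a 36.8 in CAP1-KO.

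The series asks whether CAP1 holds down genes that depend on MRTF and SRF, and the promoter windows of the members were therefore searched for the CArG box. Windows of 300 bases, 250 before to 50 after a RefSeq start on GRCm38.p6, were at hand for 9 of the 10 members, 11 windows in all; Myh11 was not among them. The motif is the exact CArG box, which reads the same class of letters on both strands, and 1.63% of all 32851 windows held it. Among the members 2 windows held it, 1 of Myl9 and 1 of the 2 of Myl6. They are printed below, 5′ to 3′, with the box in capitals.
Myl9, chr2:156775214-156775513, plus strand: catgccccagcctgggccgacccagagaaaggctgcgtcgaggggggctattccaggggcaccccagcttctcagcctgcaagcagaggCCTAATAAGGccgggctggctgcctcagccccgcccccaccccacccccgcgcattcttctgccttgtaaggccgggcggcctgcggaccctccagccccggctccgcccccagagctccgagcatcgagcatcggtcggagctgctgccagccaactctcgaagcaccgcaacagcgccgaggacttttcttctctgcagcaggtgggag
Myl6, chr10:128492960-128493259, minus strand: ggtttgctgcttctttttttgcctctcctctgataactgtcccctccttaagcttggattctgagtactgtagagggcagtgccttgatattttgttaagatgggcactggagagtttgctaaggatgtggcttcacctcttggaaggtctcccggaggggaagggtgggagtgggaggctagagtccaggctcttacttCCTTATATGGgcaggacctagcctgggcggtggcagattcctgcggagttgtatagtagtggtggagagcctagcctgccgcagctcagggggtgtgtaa
The box begins 161 bases before the start in Myl9 and 50 bases before it in Myl6. The other Myl6 window and those of Myh9, Myh10, Myh14, Myl12a, Myl12b, Mylk and Cald1 held no exact match in these letters. Among the called members with a window, Cald1 thus had no box. The Myl6 box lies in the more downstream of its 2 windows, and which start the cortex uses is not known. Whether SRF acts on any of these genes was not tested.

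For each risen member the genes with the nearest profile over the 6 libraries were looked up. Tpm2 was near both Myl9 and Myh11, and the neighbours of Myl6 and Cald1 were different genes. Nearness was the root mean square distance between centred log2(CPM + 1) values, which were not scaled. It therefore largely follows the size of the group difference, so members with unlike fold changes would mostly have unlike neighbours. Nearest to Myl9 were Tpm2, a tropomyosin (distance 0.11), Pcp4l1 (0.14) and Actg2, smooth muscle gamma-actin (0.18). Tpm2 averaged 17.6 CPM in CAP1-KO and 2.68 CPM in Control, and Actg2 4.49 CPM in CAP1-KO and 0.0301 CPM in Control (3 reads in all). Nearest to Myh11 were Tgfb1i1, a focal adhesion adaptor (0.21), Tpm2 (0.23) and Fhl2, a LIM-domain protein (0.24). Beside Myl6 stood Cyth4 (0.07), Cd44, a receptor for hyaluronan (0.07), and Tstd3 (0.08), of which Cd44 alone was called, a call kept in 8 of 16 alternatives. Cald1 had Colgalt2, a collagen galactosyltransferase (0.03), Mpeg1, a pore-forming protein of macrophages (0.05), and Glipr2 (0.07). These were called higher, as genes chosen for likeness to a called gene would mostly be, and the calls were kept in 15, 14 and 16 of 17 alternatives, each being lost with the Xist covariate. Mpeg1 averaged 10.7 CPM in CAP1-KO and 5.93 CPM in Control.

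Among other myosin genes and genes that switch myosin II on or off, few passed the test. Of 52 such genes, all in the table, 32 could be tested, and 1 rose and 1 fell by both limma and limma-voom, beside 0.562% higher and 0.403% lower over all tested genes. At an unadjusted p under 0.05, 5 of the 32 were higher and 8 lower, beside 7.74% higher and 15.3% lower over all tested genes, the shares against which the unadjusted counts by role stand. Their median log2 fold change was -0.03. Of 8 tested kinases of the regulatory light chain 0 were called in either direction (limma; 3 lower and 0 higher at an unadjusted p under 0.05, 0 with limma-voom). The most abundant kinases were Cdc42bpa, at 287 ± 10.6 CPM in CAP1-KO and 287 ± 3.19 CPM in Control, and Cdc42bpb, at 217 ± 15.7 CPM in CAP1-KO and 269 ± 32.4 CPM in Control (limma adjusted p = 0.130; SD, n = 3 each), both myotonic dystrophy kinase-related kinases that act under Cdc42. Of 8 tested genes of myosin phosphatase and its inhibitors 0 were called (limma; 2 lower and 0 higher at an unadjusted p under 0.05, 0 with limma-voom), among them Ppp1cb, the catalytic subunit (321 ± 10.1 CPM in CAP1-KO and 352 ± 21.2 CPM in Control), and Mprip, which brings the phosphatase to actin (353 ± 5.09 CPM in CAP1-KO and 395 ± 49.5 CPM in Control; SD, n = 3 each).

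Myosin filament partners had 1 of 12 tested higher and 0 lower (limma and limma-voom; 3 higher and 2 lower at an unadjusted p under 0.05): Lsp1, a leukocyte actin-binding protein, at 4.29, 4.24 and 4.05 CPM in CAP1-KO, against 2.34, 1.43 and 1.84 CPM in the Control libraries (log2 fold change 0.87, SE 0.13, limma adjusted p = 0.0309, lost in 7 of 16 alternatives). Of the striated muscle heavy chains 2 of 10 could be tested and 0 were called (limma; 1 higher and 0 lower at an unadjusted p under 0.05, 0 with limma-voom). Myh7 measured 6.51 ± 0.63 CPM in CAP1-KO and 4.87 ± 2.13 CPM in Control, and Myh8 4.20 ± 1.64 CPM in CAP1-KO and 1.83 ± 0.70 CPM in Control (SD, n = 3 each). Striated and embryonic light chains had 2 of 8 tested, with Myl6b lower and 0 higher (limma and limma-voom; Mylpf, a fast muscle light chain, was higher at an unadjusted p under 0.05).

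**Figure D4:**
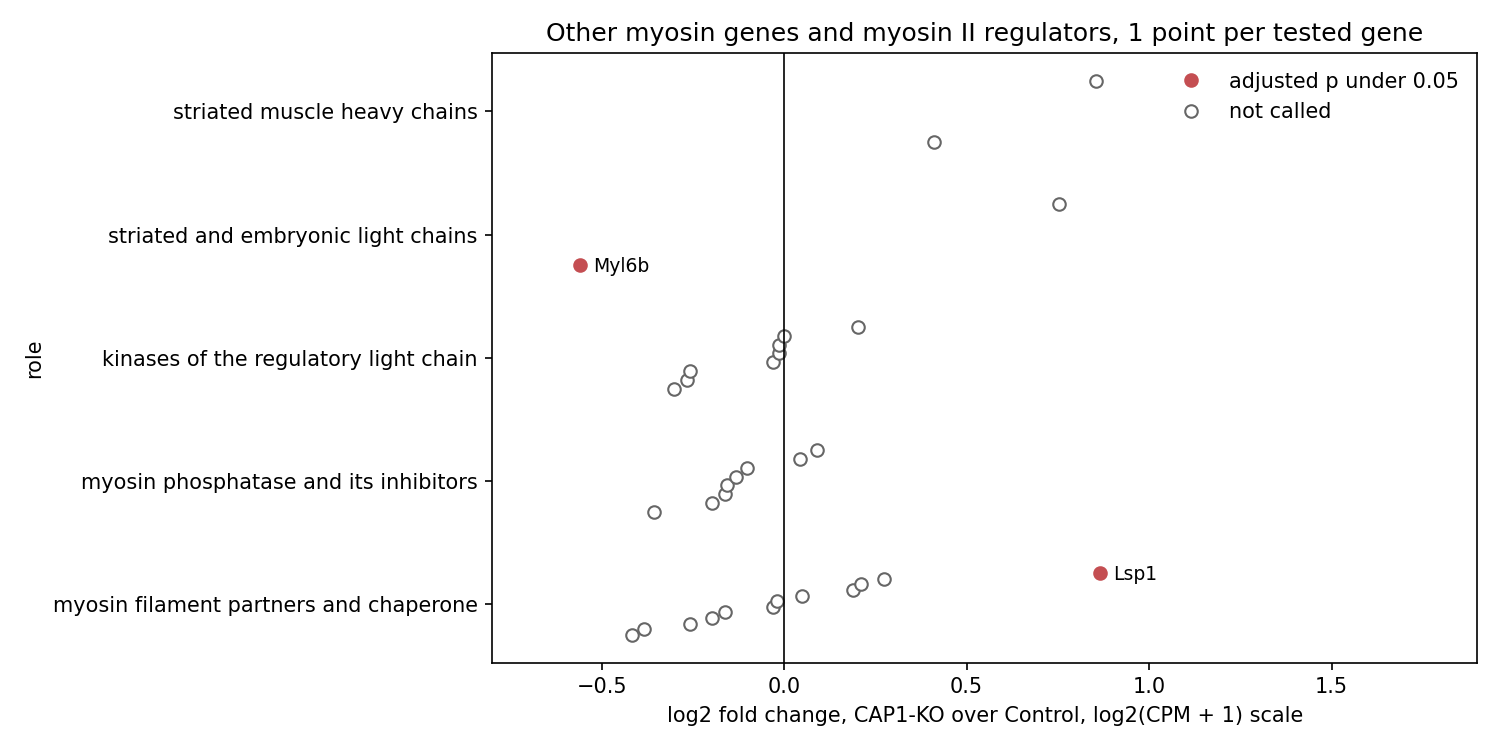
Log2 fold change (horizontal axis, CAP1-KO over Control, log2(CPM + 1) scale) of the 32 tested genes among other myosin genes and regulators of myosin II, 1 point per gene, by role. Filled points (Myl6b and Lsp1) have an adjusted p under 0.05; most others lie between -0.42 and 0.27.

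Markers of other cell types, some of which make smooth muscle myosin, were looked at beside these genes. Mural cell markers, a list without smooth muscle contractile genes, summed to 164 to 187 CPM in CAP1-KO, against 171 to 184 CPM in the Control libraries. This list does not assess vascular smooth muscle apart from pericytes. The median log2 fold change was 0.00 over 11 tested of 12 listed, and no marker was at 0 in every library. Of those tested 0 were called by limma or limma-voom, with 1 higher and 1 lower at an unadjusted p under 0.05. Over all tested genes 7.74% were higher and 15.3% lower at that unadjusted p. Within the list, Cspg4 was lower in every CAP1-KO library, at 16.6 CPM in CAP1-KO and 22.9 CPM in Control (limma adjusted p = 0.0618), and Vtn averaged 18.8 CPM in CAP1-KO and 14.0 CPM in Control (limma adjusted p = 0.180). Pdgfrb, a pericyte receptor, measured 24.8 to 30.4 CPM in CAP1-KO and 26.6 to 30.4 CPM in Control, and Rgs5 31.9 to 36.4 CPM in CAP1-KO and 31.5 to 36.5 CPM in Control. The mural sums of the groups overlapped. Meningeal fibroblast markers summed to 62.3 to 170.0 CPM in CAP1-KO, lowest in FCRE3, and to 58.6 to 63.9 CPM in Control. Of 10 listed, 9 were tested and 0 called by limma or limma-voom, with 7 higher and 0 lower at an unadjusted p under 0.05. Of the called members, Myl9, Myh11 and Myl6 were lowest within the CAP1-KO group in FCRE3, and Cald1 in FCRE4. A link between these values and the marker sums was not tested. Microglia and macrophage markers (10 tested of 10, 0 called by limma or limma-voom, 8 higher and 0 lower at an unadjusted p under 0.05) summed to 58.3 to 81.5 CPM in CAP1-KO and 37.9 to 51.7 CPM in Control. Choroid plexus markers (5 tested of 8, 1 called higher, 4 higher and 0 lower at an unadjusted p under 0.05) summed to 55.2 to 119.8 CPM in CAP1-KO and 2.89 to 7.61 CPM in Control. Endothelial markers (9 tested of 10, 2 called lower, 0 higher and 5 lower at an unadjusted p under 0.05, Slco1a4 at 0 in every library) summed to 127 to 142 CPM in CAP1-KO and 159 to 179 CPM in Control. Skeletal muscle markers (2 tested of 7, Tnni2 at 0 in every library) summed to 4.72 to 9.54 CPM in CAP1-KO, highest in FCRE3, and to 3.16 to 5.41 CPM in Control. Red blood cell markers (138 to 249 CPM in CAP1-KO and 153 to 166 CPM in Control) and radial glia markers (1293 to 1346 CPM in CAP1-KO and 1203 to 1332 CPM in Control) overlapped. The part of these cells in the myosin results was not tested.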

How the data were processed

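Cerebral cortex RNA of 3 CAP1-KO and 3 Control embryos was used. For each library the deposited table holds normalized counts as log2 values, made by the authors, and, for CAP1-KO against Control, a log2 fold change, a mean log2 CPM, an F score, a p-value and an FDR. The submitters' processing notes name STAR, edgeR and the builds GRCm38 and mm10 for what the authors did. The sources used here do not give versions, the read counter or its strand setting. The count test planned for raw counts was replaced, since the table holds log2 values. Library columns were placed in groups by genotype; their numbers match no replicate numbers of the labels.

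The shared offset (0.0584 CPM) was removed, and 100% of values came within 0.01 of a whole number of reads. limma 3.58.1 (R 4.3.3, intensity trend, no covariate) was fitted to log2(CPM + 1) of the 13885 genes averaging 1 CPM or more, with Benjamini-Hochberg adjustment; it was tested on simulated data. Shares per kilobase used two-sided exact permutation tests. Transcripts came from GENCODE vM21 and promoters from RefSeq GRCm38.p6. The members, gene lists, named-gene rule (all members; called regulators, or the 2 most abundant of a role; the 3 nearest profiles) and alternatives were chosen with earlier results of these data known. Mylpf, Myom1, Cspg4, Vtn, Pdgfrb and Rgs5 were named after their values were seen. A further group of listed genes is not reported here. Alternatives were other size factors, total-read scaling, limma-voom, other filters, a pseudocount of 0.1, the deposited log2 values, each library left out, Xist as a covariate, and FF4 or FF2 as the only Control library. Figures were drawn with matplotlib 3.10.9.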

Additional observations from a re-analysis of the deposited data

How the results depend on the processing

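Myl9 and Cald1 kept direction and call in 17 of 17 alternatives and Myh11 in 16 of 16 (the 5 CPM filter removes Myh11 and Myh14). The number of risen members was 3 to 5 and of fallen members 0 throughout. No paired analysis was possible because nothing says which libraries shared a litter or were otherwise paired. The library columns also do not carry the replicate numbers of the labels. Where a single Control library was used, it was assumed to vary like the CAP1-KO group. Counts over all genes rest on single libraries: with 1 library left out, 33 to 1292 genes rose and 3 to 2622 fell, the highest both without FF4. With the Xist covariate 23 rose and 3 fell, against FF4 alone 44 and 12, against FF2 alone 641 and 1194, and with no filter 20 fell. Regulators called higher were 0 to 4 and lower 0 to 12 with 1 library left out; 0 and 0 with no filter, with the Xist covariate and against FF4 alone; 3 and 7 against FF2 alone; and 0 higher with the 5 CPM filter. Uncalled members changed sign: Myh9 to between -0.053 and 0.096 with 1 library left out (negative without FF4), -0.0099 with the Xist covariate and -0.023 against FF2 alone, Myh10 to -0.0012 with the Xist covariate and -0.0092 against FF2 alone, and Myl12b to 0.014 with total-read scaling. Shares moved with the length used. With median transcript lengths, differences of CAP1-KO minus Control in percentage points were -1.34 for Myh9, 1.02 for Myh10, 0.291 for Myh11, 17.3 for Myl9 and -17.9 for Myl12b; with no division by length they were 15.4 for Myl9 and -17.0 for Myl12b. The cause of these differences between settings was not tested. Myh11 and Myh14 are limited by depth, with 20 to 32 and 99 to 138 reads in each Control library.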
